A study of Cricetiscus sungorus with 216 samples.

Results

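The medio-basal hypothalamus (MBH) of Djungarian hamsters was compared between the middle and the early weeks of a short photoperiod (SP). The 18 libraries labelled 12, 16 and 20 weeks SP formed the mid group and the 12 libraries labelled 4 and 8 weeks SP the early group, which together are 30 of the 54 MBH libraries and of the 216 libraries of the series. The series covers 4 regions (MBH, dorsomedial hypothalamus or DMH, paraventricular nucleus and pituitary gland) in a long photoperiod (LP) reference group and at 4-week steps up to 32 weeks of SP, with 6 hamsters in each of the 9 groups. All hamsters were adult males of a laboratory colony with no genetic change or drug, and the groups compared here differed in the weeks spent in SP. Each library came from the MBH tissue punches of 1 hamster, and each week holds different hamsters, so no animal was followed over time. The comparison asks which MBH transcripts differ between the weeks in which the winter state is being set up and the weeks in which it is held.

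The MBH holds the arcuate nucleus, whose neurons regulate feeding, growth and reproduction, and the tanycytes that line the third ventricle. In photoperiodic mammals, thyrotropin from the neighbouring pars tuberalis acts on tanycytes and sets the balance of the deiodinase Dio2, which makes active triiodothyronine, and the deiodinase Dio3, which inactivates thyroid hormones. Short days shift this balance towards Dio3, and hamsters then lose body mass, regress their gonads and may enter daily torpor.

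No transcript passed the test between mid and early SP. By edgeR's quasi-likelihood test with Benjamini-Hochberg correction, 0 of 20156 genes (0.0%) were higher and 0 (0.0%) lower at an FDR below 0.1, and the smallest FDR was 0.161. At an unadjusted p below 0.05 the same test put 337 genes (1.67%) higher and 532 genes (2.64%) lower in mid SP. DESeq2 also called 0 genes at an adjusted p below 0.1, with 191 genes (0.948%) higher and 166 genes (0.824%) lower at an unadjusted p below 0.05. Among the 11911 genes read in at least 15 of the 30 libraries, the counts were 154 higher (1.29%) and 159 lower (1.33%). The genes below are therefore described by their levels, and an unadjusted p of edgeR is given as a description.

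Depth varied widely. The early libraries held 232745 to 6699792 counts (median 1643714.5) and the mid libraries 5996 to 4712207 (median 1111357.5). The library of replicate 2 at 20 weeks held 5996 counts and 903 genes, so that 1 count in it came to 37.5 CPM (counts scaled to a common library total, with TMM factors). A single predicted gene, Gm32262, took between 9.27% and 47.8% of the counts of a library. Markers of the dissected region were present. Pomc, which encodes the precursor of melanocortins, averaged 114 CPM in early and 124 CPM in mid SP. Cga, the common subunit of the pituitary glycoprotein hormones, averaged 85.8 and 79.3 CPM. Ghrh was read in 7 and the tanycyte factor Rax in 15 of the 30 libraries. The tissue was bulk, so that fewer cells of a type and less RNA per cell cannot be told apart.

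The genes of the pars tuberalis to tanycyte pathway had lower Dio3 and Tshb and higher Dio2 means in mid SP, none of which passed the FDR threshold. Dio3 was read in 8 of 12 early and 5 of 18 mid libraries, with 31 early and 7 mid counts in all. Its early level ran from 0 over a median of 0.738 to 5.34 CPM and its mid level from 0 over a median of 0 to 1.85 CPM, so that the groups overlapped and 2 early libraries lay above every mid library. The weekly means were 0.729 CPM at 4 weeks, 1.72 at 8, 0.533 at 12, 0.383 at 16 and 0 at 20 weeks. It was at 0 in all LP hamsters and in those of 24, 28 and 32 weeks, where a count of 0 limits only what these depths can show. The log2 difference (mid minus early) was -2.38 ± 0.66 (SE, edgeR p = 0.00114, FDR 0.509), and a permutation test of the mean CPM gave p = 0.0256. The pooled counts gave a mid to early ratio of 0.169 (95% interval 0.0627 to 0.390, counting error only, with each summed count taken as a separate read).

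Tshb, which encodes the beta subunit of thyrotropin, ran from 0 over a median of 3.57 to 40.4 CPM in early SP and from 0 over a median of 0 to 7.21 CPM in mid SP. The difference lay within the early group as well as between the groups, since the mean was 14.1 ± 13.7 CPM at 4 weeks and 1.86 ± 4.33 CPM at 8 weeks (SD, n = 6 each). The means at 12, 16 and 20 weeks were 0.530, 2.07 and 0.809 CPM, against 438 CPM in LP. Of the early libraries, 5 lay above every mid library. The log2 difference was -2.24 ± 0.76 (SE, edgeR p = 0.00481, FDR 0.708; permutation p = 0.00844). Without the 4-week group it was -1.02 (FDR 1) and without the 8-week group -3.45 (FDR 0.0996, edgeR with Benjamini-Hochberg correction), and over all alternatives the FDR lay between 0.0996 and 1. Dio2 ran from 0 over a median of 0.949 to 3.85 CPM in early and from 0 over a median of 1.93 to 5.41 CPM in mid SP, with overlapping groups. Its log2 difference was 0.89 ± 0.44 (SE, edgeR p = 0.0499, FDR 1; permutation p = 0.0903). Of the 20 genes of the thyroid hormone list in the table, 1 (Dio2) was higher and 2 (Dio3 and Hr, a corepressor of nuclear receptors, log2 difference -2.13) were lower at an unadjusted p below 0.05, against 1.67% and 2.64% of all genes. Of the 16 members read in at least 15 libraries 0 were lower. Of the 14 pars tuberalis genes, 2 were lower (Tshb among them) and 0 higher, and the median log2 difference of their members read in at least 15 libraries was 0.12.

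**Figure D1:**
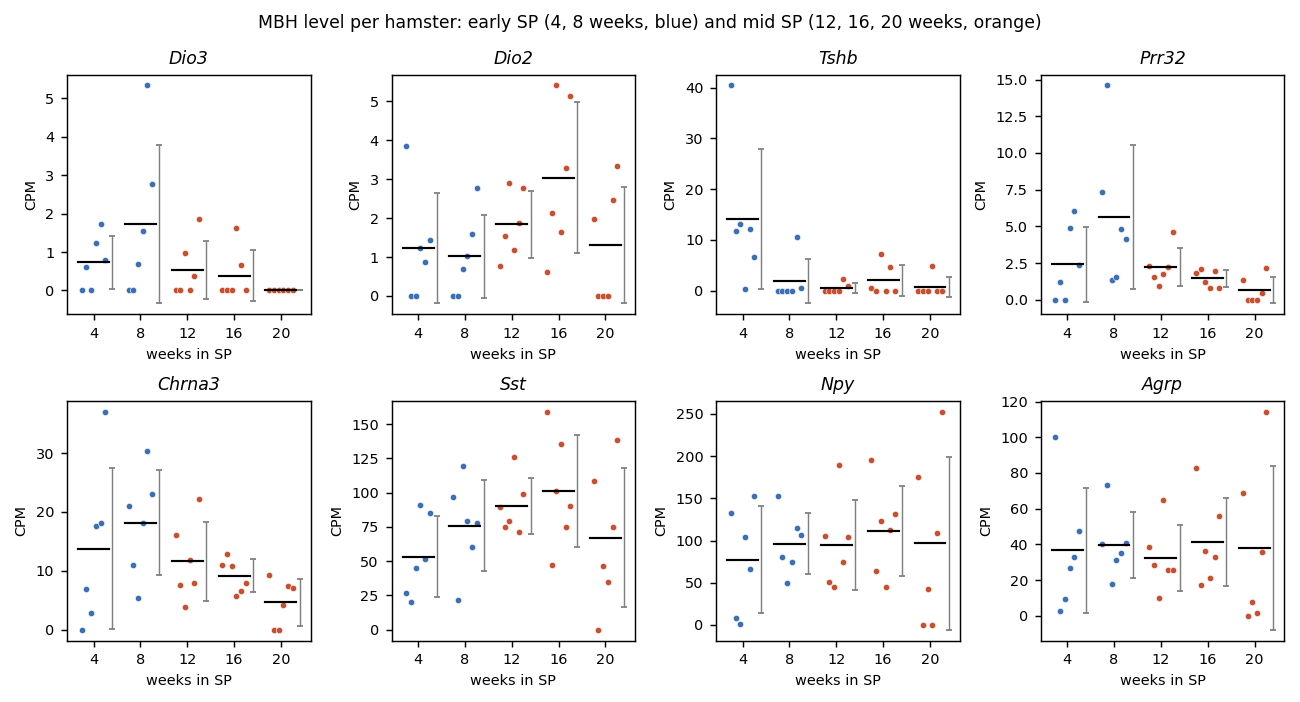
MBH level in CPM (y axis) of 8 genes, by weeks of SP (x axis). Each dot is 1 hamster (blue early, orange mid SP), the black line the mean and the grey bar the SD. Dio3 was at 0 in all 6 hamsters at 20 weeks, Tshb was highest at 4 weeks, and the early and mid dots overlap in every panel.

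Sst, the peptide that inhibits growth hormone release, had the higher mean in mid SP, by less than the threshold of the test. It ran from 19.9 over a median of 69.0 to 119 CPM in early SP and from 0 over a median of 84.6 to 159 CPM in mid SP. Of the mid libraries, 14 of 18 lay above the early median and 4 above every early library. Weekly means were 53.4, 75.9, 90.1, 101 and 67.2 CPM from 4 to 20 weeks, against 44.2 CPM in LP, and the log2 difference was 0.46 ± 0.26 (SE, edgeR p = 0.0863, FDR 1; permutation p = 0.127). The somatostatin receptor Sstr5 was read in 4 early and 10 mid libraries and had a log2 difference of 1.16 ± 0.64 (SE, edgeR p = 0.117, permutation p = 0.166). Of the 24 genes of the somatostatin and growth hormone axis, Cort, which encodes the related peptide cortistatin, was higher at an unadjusted p below 0.05 (log2 difference 2.94) and 0 were lower. The members read in at least 15 libraries had a median of 0.00.

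No arcuate gene of feeding passed the FDR threshold. Npy, which drives feeding, had early and mid means of 86.8 ± 50.2 and 101 ± 69.2 CPM (SD, 12 and 18 libraries), and a log2 difference of 0.28 ± 0.44 (SE, permutation p = 0.548). Agrp, which blocks melanocortin signalling, had means of 38.1 ± 26.8 and 37.1 ± 30.2 CPM (SD) and a log2 difference of 0.10 ± 0.42 (SE, permutation p = 0.91). The difference of Mc4r, the melanocortin receptor, was 0.19 ± 0.67 (SE, permutation p = 0.797), and that of Pomc 0.10 ± 0.32 (SE). The directions of Agrp, Mc4r and Pomc turned when single weeks or replicates were left out. Cartpt, an appetite-reducing peptide, ran from 13.2 over a median of 82.0 to 160 CPM in early and from 40.2 over a median of 123 to 280 CPM in mid SP. Its means were 85.6 and 85.8 CPM at 4 and 8 weeks and 90.2, 136 and 143 CPM at 12, 16 and 20 weeks, with 15 of 18 mid libraries above the early median and a log2 difference of 0.49 ± 0.21 (SE, edgeR FDR 1). It was the only 1 of 37 arcuate peptides and receptors with an unadjusted p below 0.05, against 1.67% higher and 2.64% lower of all genes. By the most abundant isoform 8 of the 37 were higher (Npy, Agrp, Cartpt, Pcsk1n, Vgf, Chga, Chgb and Tac1) and 0 lower at that p, against 2.09% and 2.53% of all genes, and none of the 8 passed the FDR threshold. The isoform fit drew the spread of single genes fully to a common trend. Its p-values may thus be too small for genes that vary widely between hamsters, and the count of 8 is a description only. The leptin receptor Lepr lay at -1.49 ± 0.74 (SE, edgeR FDR 1), with an early median of 0.979 and a mid median of 0 CPM. The difference of the granin Chgb was 0.42 ± 0.24 (SE) and that of Pcsk1n, an inhibitor of prohormone convertase, 0.44 ± 0.26 (SE).

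Chrna3, Prr32 and Upp2 had lower means in mid SP. They were chosen, like Tshb, because their levels at 8 weeks differed from LP in earlier results of these libraries, so that the early level took part in the choice and their directions and p-values are a description only. Chrna3, a nicotinic acetylcholine receptor subunit, ran from 0 over a median of 17.8 to 37.03 CPM in early and from 0 over a median of 7.77 to 22.2 CPM in mid SP. Of the mid libraries, 17 of 18 lay below the early median, and 3 early libraries lay above every mid library. Weekly means were 13.7, 18.2, 11.6, 9.14 and 4.66 CPM, against 1.43 CPM in LP, with a log2 difference of -0.92 ± 0.34 (SE, edgeR p = 0.0088, FDR 0.82; permutation p = 0.0224). Prr32, a proline-rich protein, had weekly means of 2.43, 5.64, 2.24, 1.46 and 0.664 CPM. It ran from 0 over 3.27 to 14.6 CPM in early and from 0 over 1.43 to 4.62 CPM in mid SP (lowest, median, highest), and 17 of 18 mid libraries again lay below the early median. Its log2 difference was -1.26 ± 0.47 (SE, edgeR p = 0.0104, FDR 0.82; permutation p = 0.0119). Upp2, a uridine phosphorylase, was read in 2 early libraries (29 counts) and 1 mid library (1 count), and 28 of the 29 early counts came from replicate 6 at 4 weeks. The pooled ratio was 0.0258 (95% interval 0.000631 to 0.155), and without that library 1 early and 1 mid count remained. Its level in LP was 13.6 CPM. The other genes in the list of 11 (Dio3, Dio2, Sst, Sstr5, Npy, Agrp and Mc4r) are discussed by the study, partly from these samples, so that their directions are not independent evidence either. Of the 11, 1 was higher and 4 were lower at an unadjusted p below 0.05, against 1.67% and 2.64% of all genes. Of 17 nicotinic and cholinergic genes, 3 were lower, namely Chrna3, Chrna1 (-1.27) and the choline transporter Slc5a7 (-1.79), against 2.64% of all genes, and Chrna1 was at 0 at 20 weeks and its log2 difference was 0.058 without that group.

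Aspa, Cgnl1 and Slc16a3 were among the genes with the smallest p-values, and each had a median at or near 0 CPM in 1 group. Aspa, the aspartoacylase of oligodendrocytes, ran from 0 over a median of 5.10 to 90.5 CPM in early and from 0 over a median of 0 to 6.79 CPM in mid SP, and 6 of 12 early libraries lay above every mid library. Its weekly means were 24.4 ± 34.6, 6.06 ± 10.9, 2.84 ± 2.94, 0.1002 ± 0.245 and 0.345 ± 0.635 CPM (SD, n = 6 each), against 11.5 CPM in LP. The log2 difference was -4.11 ± 0.86 (SE, edgeR p = 1.43e-05, FDR 0.161; permutation p = 0.00332). By its most abundant isoform Aspa averaged 5.96 and 0.851 CPM (permutation p = 0.0376), and it did not pass the FDR threshold in that fit. Cgnl1, which encodes the junction protein paracingulin, was read in 1 early library (1 count) and 11 mid libraries (89 counts summed over isoforms). The pooled ratio was 66.5 (95% interval 11.6 to 2655, with each summed count taken as a separate read). Its log2 difference was 4.78 ± 1.02 (SE, edgeR p = 2.43e-05, FDR 0.163; permutation p = 0.00124). Slc16a3, a lactate transporter, ran from 0 over a median of 0.231 to 5.72 CPM in early and from 0 over a median of 7.10 to 24.5 CPM in mid SP, with 11 of 18 mid libraries above every early library. Its log2 difference was 2.96 ± 0.66 (SE, edgeR p = 3.71e-05, FDR 0.187, n = 18 and n = 12). It lay at 1.58 without the 8-week group, and at 4.34 without the 4-week group. Under the quasi-likelihood method of edgeR 4, Slc16a3 (FDR 0.0779) and Cgnl1 (FDR 0.0959) were higher (0.00992%) and Aspa (FDR 0.0779) was lower (0.00496%), with 0 other genes. Over all alternatives the edgeR and DESeq2 FDRs ran from 0.0779 to 0.732 for Slc16a3, from 0.0287 to 0.605 for Cgnl1 and from 0.00867 to 0.750 for Aspa, whose FDR was lowest without the 8-week group.

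**Figure D2:**
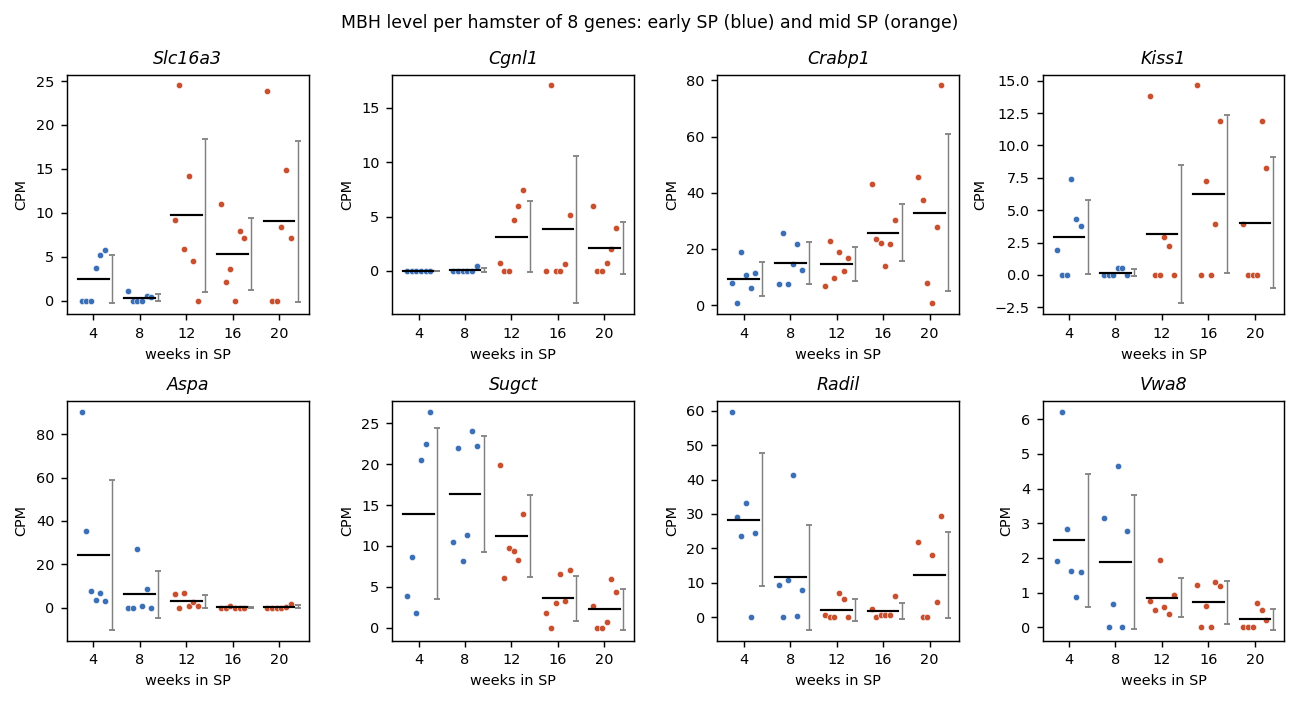
MBH level in CPM (y axis) of 8 genes by weeks of SP (x axis), with 1 dot per hamster (blue early, orange mid SP), the mean as a black line and the SD as a grey bar. Cgnl1 was read in 1 early and 11 mid libraries, and Sugct averaged 13.96 and 16.4 CPM at 4 and 8 weeks and 2.27 CPM at 20 weeks.

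Among genes read in at least 15 libraries, 10 on each side had the smallest p. Those with the higher mean in mid SP were Slc16a3, the mitochondrial valyl-tRNA synthetase Vars2 (3.15), the myosin chaperone Unc45a (1.98), the kinase Map2k5 (1.29), the RNA-binding protein Rbm33 (1.28), Mgarp (1.89), the endothelial cadherin Cdh5 (2.31), the secreted factor Nenf (0.95), the orphan receptor Gpr176 (2.21) and the nuclear receptor coactivator Pnrc1 (0.86), as log2 differences. Their unadjusted p lay between 3.71e-05 and 0.00448. All but Mgarp and Map2k5 had their lowest weekly mean at 8 weeks. Rbm33 averaged 6.32 CPM at 4 weeks, 1.51 at 8 and 6.26 at 20 weeks, so that its 4-week level was like its 20-week level. Vars2 averaged 1.201 CPM at 4 weeks and 0 at 8 weeks, and Unc45a averaged 3.85 and 0.634 CPM. Nenf was read in all 12 early libraries, from 3.77 over 6.21 to 13.5 CPM, and ran from 0 over 13.7 to 31.2 CPM in mid SP (lowest, median, highest), with 9 of 18 mid libraries above every early library and a permutation p of 0.0219.

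Among those on the lower side were Aspa, Sugct (-1.55), Radil (-2.09), the zinc finger protein Zfp142 (-2.79), Ccdc190 (-2.57), Vwa8 (-1.83), the epoxide hydrolase Ephx4 (-2.16), Fam228b (-3.03) and the myosin phosphatase inhibitor Ppp1r14a (-2.25). Sugct, a mitochondrial enzyme of glutarate metabolism, ran from 1.88 over a median of 15.9 to 26.4 CPM in early and from 0 over a median of 5.14 to 19.9 CPM in mid SP. Of the mid libraries, 17 of 18 lay below the early median and 6 early libraries lay above all of them. Its weekly means were 13.96, 16.4, 11.2, 3.63 and 2.27 CPM, against 3.49 CPM in LP, so that the mid group itself was uneven. The log2 difference was -1.55 ± 0.40 (SE, edgeR p = 0.000291, FDR 0.367; permutation p = 0.00114). Ppp1r14a lay below the early median in 18 of 18 mid libraries, with early and mid medians of 2.40 and 0 CPM, and 8 of 12 early libraries lay above every mid library. Radil, a Rap effector, was lowest at 12 and 16 weeks (2.19 and 1.81 CPM) and returned to 12.3 CPM at 20 weeks, against 28.3 and 11.7 CPM at 4 and 8 weeks. Fam228b, with 33 isoforms, was read in 8 early and 7 mid libraries and reached 123 CPM in 1 early library. That library, replicate 1 at 4 weeks, also held the highest early or mid level of Aspa (90.5 CPM), Radil (59.7), Ephx4 (11.5) and Ppp1r14a (9.62). Tshb, Mog, Malat1, Gm27188 and 2810433D01Rik were highest in it as well. The early means of these genes thus rest in part on 1 hamster. Sugct, Zfp142, Ccdc190 and Vwa8 were highest in other libraries, and Dio3 and Chrna3 were at 0 CPM in this library.

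**Figure D3:**
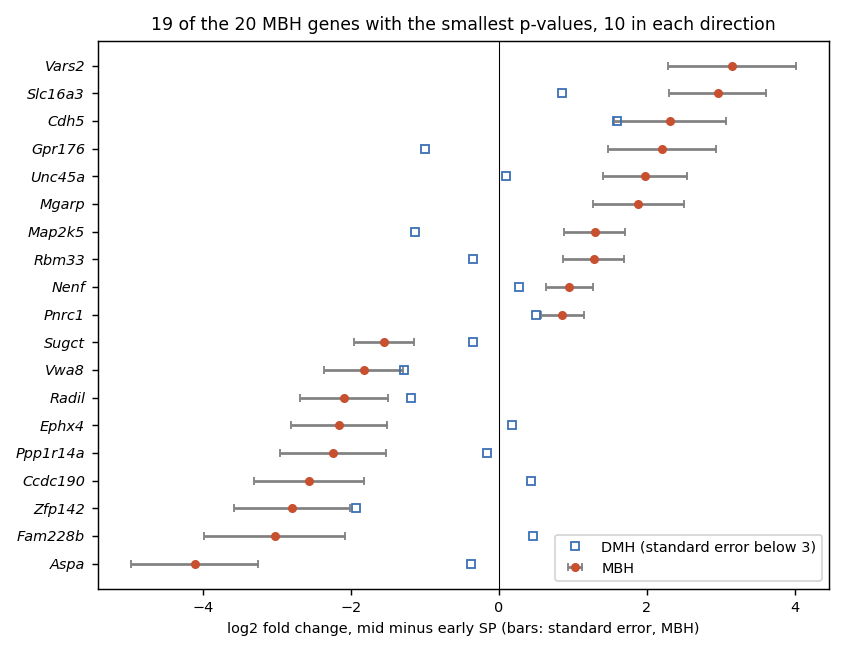
Log2 difference between mid and early SP (x axis) ± SE for 19 of the 20 genes read in at least 15 of the 30 MBH libraries with the smallest p in each direction (y axis), with the same contrast in the DMH as squares where its SE was below 3. The MBH values run from -4.11 (Aspa) to 3.15 (Vars2), and none passed an FDR below 0.1.

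Counting each gene by its most abundant isoform instead of the sum gave 5 genes higher (0.0248%) and 11 lower (0.0546%) at an FDR below 0.1. The higher genes were Nenf, Crabp1, Oxt, Cgnl1 and Vgll3, and the lower ones included Mbp, Mobp, Sugct, Chrna3, Dio3, Cdr1, Malat1, Scrg1, Gm27188 and 2810433D01Rik. In this fit the spread of single genes was drawn fully to the common trend (infinite prior degrees of freedom, against 7.85 in the summed counts), with a common dispersion of 0.0729 against 0.406. With robust estimation of the dispersions in edgeR, Cgnl1 was the only gene higher (0.00496%; log2 difference 3.01, FDR 0.0816), and Sugct (-1.53, FDR 1.97e-05), Chrna3 (-1.02, FDR 0.00122) and Dio3 (-2.52, FDR 0.0550) were the only genes lower (0.0149%). Over all alternatives their edgeR or DESeq2 FDRs ran up to 0.605, 0.930, 1 and 1. The other 12 did not pass. The levels of the early and mid libraries overlapped for each of these 12, and also for Cgnl1, Sugct, Chrna3 and Dio3. Oxt, the peptide oxytocin of neighbouring nuclei, averaged 16.98, 2.10, 6.54, 5.66 and 53.4 CPM over the 5 weeks with a single hamster at 243 CPM, and its permutation p was 0.677. Vgll3, a transcriptional cofactor, averaged 4.23 and 8.93 CPM in the early and 15.3, 15.6 and 15.01 CPM in the mid weeks (permutation p = 0.0151). Its highest 20-week value, 37.5 CPM in replicate 2, was 1 count in the smallest library. The other 20-week values ran from 0 to 25.8 CPM, so that the 20-week mean and this p rest in part on that count. The nuclear RNA Malat1 had a permutation p of 0.103, Cdr1 of 0.0488, Scrg1 of 0.0896, Gm27188 of 0.314 and 2810433D01Rik of 0.181.

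Myelin transcripts were high in a few early libraries. Of 24 genes of myelin and oligodendrocytes in the table, 0 were higher and 5 lower (among them Aspa, Mbp, Mobp and Mog) at an unadjusted p below 0.05, against 1.67% and 2.64% of all genes. With replicate number as a block, 0 were higher and 2 lower at that p. The median log2 difference of the 23 members read in at least 15 libraries was -0.37, against 0.01 over all such genes. Mbp, myelin basic protein, ran from 98.8 over a median of 265.1 to 3571 CPM in early and from 0 over a median of 325 to 1113 CPM in mid SP. Its median was thus higher in mid SP, and the lower mid mean (408 against 957 CPM) went with 4 early libraries that lay above every mid library. Its log2 difference was -1.21 ± 0.45 (SE, edgeR p = 0.0101; permutation p = 0.0887). Mobp, another myelin protein, had medians of 23.7 and 29.9 CPM and 3 such early libraries (-1.29 ± 0.58, SE, edgeR p = 0.0299; permutation p = 0.12). Mog, a minor myelin glycoprotein, averaged 6.81 CPM at 4 weeks and 1.46, 1.84, 0.810 and 1.10 CPM in the later weeks.

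The summed level of the 24 genes ran from 296 over a median of 624 to 5305 CPM in early and from 37.5 over a median of 659 to 1993 CPM in mid SP. The 4 highest early values were 4713, 1854 and 3016 CPM in replicates 1 to 3 at 4 weeks and 5305 CPM in replicate 3 at 8 weeks. The highest mid values were 1993 CPM in replicate 3 at 20 weeks and 1610 and 1377 CPM in replicates 3 and 1 at 12 weeks. The part of the amount of white matter in the punches in these differences was not tested. In the DMH of the same hamsters Mbp lay at 0.27 ± 0.70, Mobp at -0.16 ± 0.66 and Aspa at -0.38 ± 0.69 (SE), and the list had 1 member higher and 1 lower at an unadjusted p below 0.05, against 2.51% and 3.22% of all DMH genes.

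**Figure D4:**
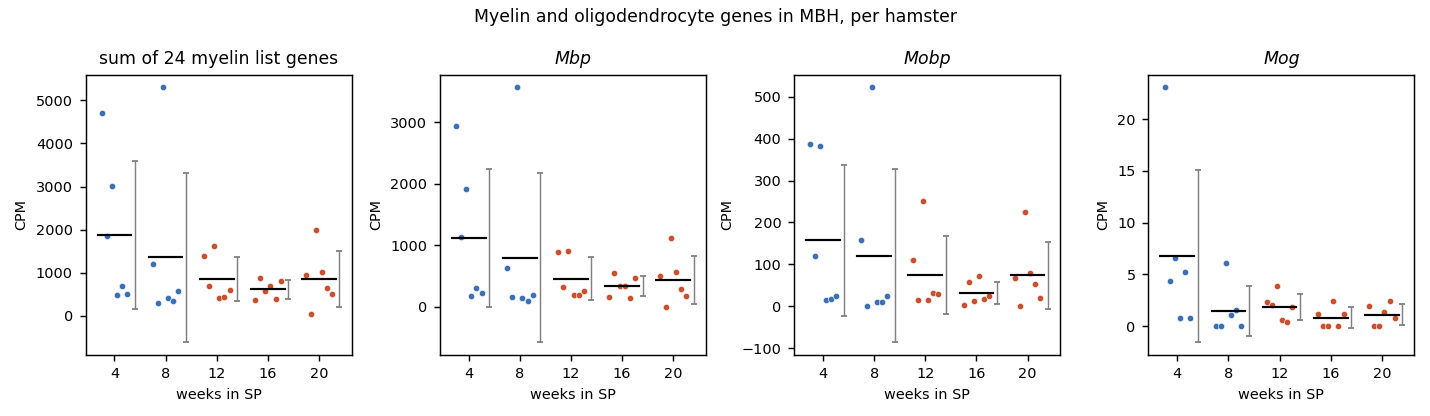
Sum of 24 myelin and oligodendrocyte genes, Mbp, Mobp and Mog in CPM (y axes) in each MBH library by weeks of SP (x axis), with 1 dot per hamster (blue early, orange mid SP), the mean as a black line and the SD as a grey bar. The high early means rest on a few hamsters, with sums of 4713, 1854 and 3016 CPM at 4 weeks and 5305 CPM at 8 weeks.

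Of the genes of retinoic acid handling none passed the FDR threshold. Crabp1, a cytosolic retinoic acid binding protein, ran from 0.621 over a median of 11.04 to 25.5 CPM in early and from 0.694 over a median of 22.01 to 78.2 CPM in mid SP, with 14 of 18 mid libraries above the early median. It averaged 9.22, 14.9, 14.5, 25.8 and 32.9 CPM over the 5 weeks and 38.8 CPM in LP. The log2 difference was 1.02 ± 0.38 (SE, edgeR p = 0.0101, FDR 0.82; permutation p = 0.0172). Cyp26b1, which degrades retinoic acid, averaged 0.198, 3.18, 8.48, 2.76 and 3.12 CPM (log2 difference 2.20 ± 0.82, SE). Rbp4, the retinol carrier, had medians of 18.4 and 12.3 CPM and averaged 20.1, 26.7, 21.2, 12.6 and 9.50 CPM (-0.69 ± 0.29, SE). Among 33 tanycyte and retinoic acid genes, 4 were higher at an unadjusted p below 0.05 (Crabp1, Cyp26b1, the receptor Rarg at 1.48 and Slc17a8 at 1.60) and 2 lower (Rbp4 and the retinol transporter Stra6 at -2.93), against 1.67% and 2.64% of all genes, and the median of the members read in at least 15 libraries was -0.12. The tanycyte receptor Gpr50 had means of 9.26 and 6.08 CPM (-0.44 ± 0.45, SE).

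Kiss1, which encodes the kisspeptins that drive gonadotropin-releasing hormone neurons, was read in 6 early and 10 mid libraries. It ran from 0 over a median of 0.258 to 7.37 CPM in early and from 0 over a median of 2.60 to 14.6 CPM in mid SP. Weekly means were 2.91, 0.175, 3.16, 6.28 and 4.02 CPM, so that 4 weeks lay closer to 12 weeks than to 8 weeks (log2 difference 2.34 ± 0.80, SE, edgeR p = 0.00531, FDR 0.734; permutation p = 0.0799). By its most abundant isoform Kiss1 averaged 1.54 and 2.48 CPM, with a log2 difference of 1.03 ± 0.58 (SE, edgeR FDR 1; permutation p = 0.343). Tacr3, the neurokinin B receptor, averaged 0.722 and 0.311 CPM (-1.55 ± 0.54, SE), and Srd5a1, the steroid reductase, 2.04 and 4.63 CPM (1.11 ± 0.56, SE). Of 19 reproductive peptides and steroid receptors, 2 were higher (Kiss1 and the receptor Npffr1 at 1.92) and 1 lower (Tacr3) at an unadjusted p below 0.05, against 1.67% and 2.64% of all genes, with a median log2 difference of 0.24 over those read in at least 15 libraries, of which Kiss1 alone was higher.

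The other gene lists are given by their members with an unadjusted p below 0.05, to be read against 1.67% higher and 2.64% lower of all genes. Of 76 potassium channels, 7 were higher, of which 2 were read in at least 15 libraries, namely the ATP-sensitive channel Kcnj11 (1.43) and the M-channel subunit Kcnq3 (0.84), and 1 was lower (Kcnc2, -2.16), with a median of -0.02 over the members read in at least 15 libraries. The clock list had 1 of 24 lower, the repressor Nr1d2, with means of 7.65 and 3.65 CPM (-0.97 ± 0.43, SE). The immediate early genes had 1 of 28 lower (Egr1, -1.20), and the heat and cold shock proteins had Hspa1a higher (0.79) and Cryab lower (-0.63) of 29. Of 44 GABA and glutamate receptors 1 was lower (Gabrr1, -1.69), and of 21 glucocorticoid responsive genes, 18 genes of dopamine and histamine, 20 genes of neighbouring nuclei, 13 of DNA methylation and 20 chromatin regulators 0 were higher or lower. The 82 ribosomal protein genes had 0 members on either side. Of the 80 read in at least 15 libraries, 68 lay below 0, against 5760 of all 11911 such genes. Their median was -0.06, and -0.02 with libraries under 10000 counts left out. Of 97 genes of oxidative phosphorylation, Ndufb2 was lower (-0.38). Of the 90 read in at least 15 libraries, 74 lay below 0, with a median of -0.09, and -0.06 with the same libraries left out.

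The markers of other cell types were counted in the same way, against 1.67% higher and 2.64% lower of all genes, and none passed the FDR threshold. Microglia had 1 of 18 lower, astrocytes 1 of 14 (Mlc1, -0.50) and ependyma 2 of 20 (Dynlrb2, -0.64, and Foxj1, -1.40), with 0 higher in each. Vessels and leptomeninges had 2 of 19 higher (Cdh5, and Kcnj8 at 1.60) and 1 lower (Slco1a4, -2.54). Choroid plexus had 1 of 12 lower (Otx2, -2.71), pituitary 2 of 14 (Tshb, and Tbx19 at -1.11) and skeletal muscle 3 of 14 (Tnnt3, -4.29, Tnni2, -1.81, and Pvalb, -1.29). Of 16 pan-neuronal genes 0 were higher or lower, with a median of 0.05, and of 9 genes of blood cells 0.

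**Figure D5:**
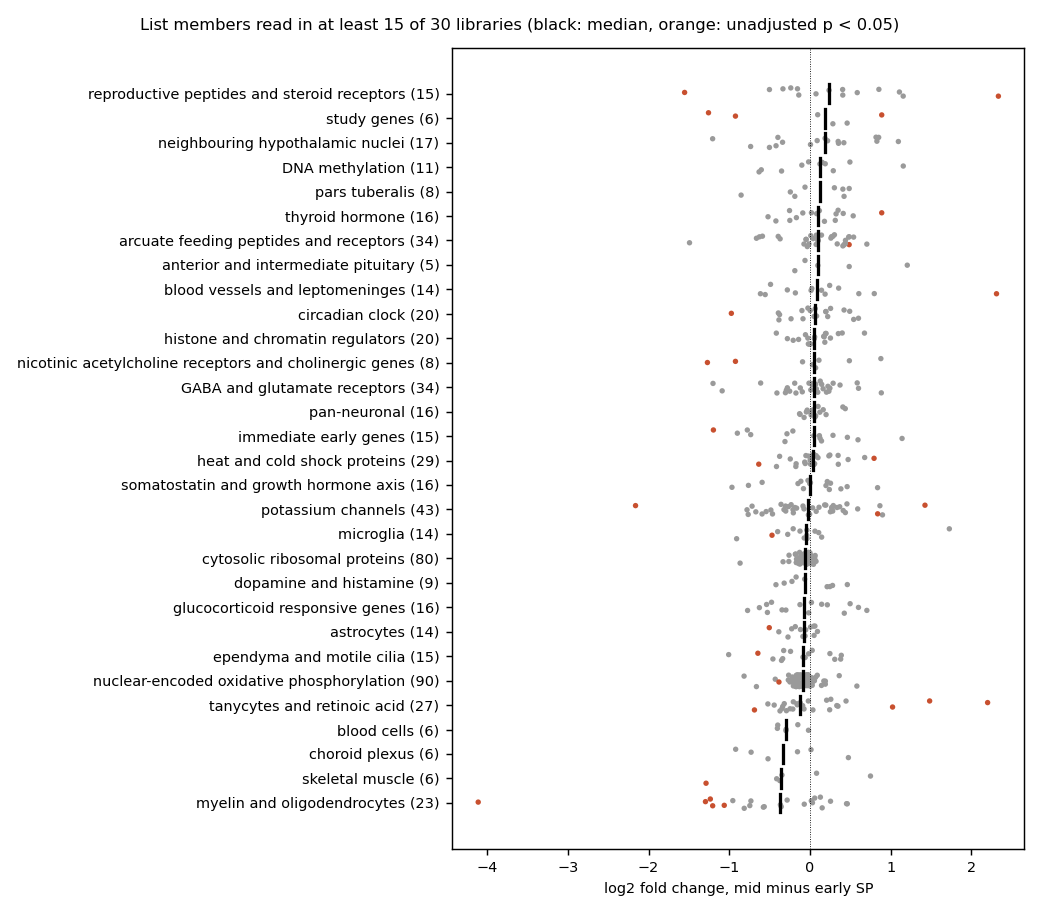
Log2 difference between mid and early SP (x axis) of each member read in at least 15 of the 30 MBH libraries, by gene list (y axis), with the median as a black mark and members at an unadjusted p below 0.05 in orange. Myelin has the lowest median of the lists, at -0.37, with skeletal muscle at -0.36.

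The MBH contrast was set against the same contrast in the DMH of the same 30 hamsters, over 17760 genes in both tables. The difference between the regions passed an FDR below 0.1 for 0 genes on either side (edgeR, 60 libraries), with 521 genes (2.93%) more positive and 381 genes (2.15%) more negative in the MBH at an unadjusted p below 0.05. That fit held no term for the hamster and took the 60 libraries as independent. The differences of single genes below come from it. With the hamster as a block, 1 gene (Mybpc1, 0.00563%) was more negative and 0 (0.0%) more positive in the MBH at an FDR below 0.1, and with the most abundant isoform 1 (Gal, 0.00563%) was more positive and 2 (Cdr1 and Mbp, 0.0113%) were more negative. In the DMH alone, 2 of 21821 genes (Fut10 and Trip10, 0.00917%) were higher and 1 (Taf1a, 0.00458%) was lower at an FDR below 0.1. Aspa lay at -4.11 in the MBH and -0.38 in the DMH, a difference of -3.69 ± 1.03 (SE, edgeR FDR 0.469). Gal, the peptide galanin, averaged 57.4 and 57.7 CPM in the early and mid MBH and 2.78 and 0.593 CPM in the DMH, a difference of 2.59 ± 0.74 (SE, edgeR FDR 0.52). Appl2, an endosomal adaptor, averaged 13.5 and 13.8 CPM in the MBH and 0.165 and 2.93 CPM in the DMH (-3.68 ± 1.00, SE, edgeR FDR 0.469). For Gal and Appl2 the distance between the regions therefore came with the DMH values, while the MBH means differed by less than their SDs. The other genes with the smallest p among those read in at least 15 libraries of each region were Nanp, Dalrd3, Rhpn1 and LOC115487814, more positive in the MBH by 1.87 to 2.69, and Rras2, Abracl and Pcmtd1, more negative, with differences of -2.57 to -1.96 on the log2 scale.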

How the data were processed

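The expected counts deposited in the MBH and DMH tables are estimated counts per isoform, without normalization, that the authors made from nanopore reads of PCR-amplified cDNA from polyadenylated RNA. Per the study's methods, bases were called with guppy, adapters removed with Porechop, reads filtered with Filtlong, aligned with Minimap2 to the mouse genome GRCm39, counted with Salmon, and transcripts with low counts removed with EdgeR. Because hamster reads were placed on mouse genes, a diverged gene may be undercounted. Of the MBH values above 0, 99.1% were whole (to within 1e-06). In 20.0% of gene and library pairs with several isoforms and at least 5 counts, all isoforms had equal values. The sum and the most abundant isoform therefore differ in scale, and the sum may count a read more than once.

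The 91460 isoforms were summed per gene symbol (20156 genes), rounded and kept without a filter. The members and gene lists were chosen with earlier results of these data known. All 54 MBH libraries were fitted with 9 group means in edgeR 4.0.16 (R 4.3.3, TMM, quasi-likelihood F-test in the form of edgeR 3), with the mean of the 12, 16 and 20 week coefficients minus the mean of the 4 and 8 week coefficients as the contrast and Benjamini-Hochberg correction. The MBH and DMH were compared in 1 fit of 60 libraries, with group means only and no term for the hamster that both regions shared. The permutation tests of mean CPM were two-sided with 100000 resamples (scipy 1.17.1, Python 3.11.15) and not adjusted over genes. Intervals of count ratios are exact and cover 95% counting error only, with each summed count taken as a separate read. A read may stand in the counts of several isoforms of a gene, so that these intervals may be too narrow. Nothing in the sources used here names separate sequencing batches. No pair of libraries held identical values.

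Named genes are the 10 with the smallest p in each direction among genes read in at least 15 of the 30 libraries, 11 genes that the study discusses or that stood out in earlier results of these data, up to 4 per list with the smallest p, and up to 5 in each direction for the MBH and DMH difference. Genes called only under an alternative and list members read in fewer libraries were named after their values were seen. Alternatives were size factors of DESeq2 1.42.0, library totals, edgeR's filterByExpr, edgeR 4, DESeq2 (Wald test), the 30 libraries alone, the most abundant isoform, libraries under 10000 or 500000 counts left out, an FDR below 0.05, replicate number as a block, and each replicate number or week left out in turn. Weeks pooled, robust dispersions and the hamster as a block were added after seeing the data. Some named genes are not reported here. The fit was tested on simulated data, with 200 genes changed in mid SP in each of 2 runs. The changed genes were drawn from those read in at least 15 of the 30 libraries. At an FDR below 0.1 it called 51 (25.5%) of the genes changed 2-fold and 137 (68.5%) of those changed 4-fold. Many changes of such sizes would thus be missed. It also called 10 and 25 unchanged genes, in each run a larger share of all calls than the FDR threshold of 0.1. These shares do not cover genes read in fewer libraries, such as Dio3 and Cgnl1.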

Additional observations from a re-analysis of the deposited data

Results flagged for a closer look

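In 25 of the 215 sets of 6 libraries of a week that were tested, the highest or lowest library stood far from the others (Dixon's test on log2 values with 1 added). The rule marks about 1 in 20 sets of normally spread values, but a set with a single value above 0 is always marked. This held for Mgarp and Sstr5 at 4 weeks, Gpr176 at 4 and 8, Cgnl1 at 8, Aspa at 16, and Tshb and Upp2 at 20 weeks. The 25 sets can therefore not be set against that rate. The library of replicate 2 at 20 weeks SP stood lowest by its total of 5996 counts, by its myelin sum of 37.5 CPM, and by levels of 0 CPM for Nenf, Sst, Mbp and Malat1. Each of the other sets concerned 1 gene, but some libraries came up more than once. Replicate 6 at 4 weeks was marked for Gpr176, Sstr5 and Upp2, and replicate 6 at 20 weeks for Fam228b and Upp2. Replicate 3 at 16 weeks was marked high for Aspa and low for Rbm33. High libraries were Mgarp at 0.409 CPM (4 weeks, replicate 4), Gpr176 at 1.43 (4 weeks, replicate 6), 1.05 (8 weeks, replicate 1) and 3.97 CPM (20 weeks, replicate 1), and Ephx4 at 11.5 CPM (4 weeks, replicate 1). Others were Aspa at 0.601 CPM (16 weeks, replicate 3), Zfp142 at 6.60 CPM (16 weeks, replicate 5), Fam228b at 25.3 (16 weeks, replicate 6) and 3.35 CPM (20 weeks, replicate 6) and Cgnl1 at 0.462 CPM (8 weeks, replicate 6). Among the genes chosen from the study or from earlier results, Tshb stood high at 10.7 (8 weeks, replicate 5) and 4.86 CPM (20 weeks, replicate 4), Upp2 at 4.45 (4 weeks, replicate 6) and 0.197 CPM (20 weeks, replicate 6) and Sstr5 at 0.318 CPM (4 weeks, replicate 6). Low libraries were Rbm33 at 4.81 CPM (16 weeks, replicate 3), Gm27188 at 149.9 CPM (8 weeks, replicate 4), and Radil (4 weeks, replicate 5) and Vgll3 (16 weeks, replicate 2) at 0 CPM.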

How the results depend on the processing

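The counts of 0 genes higher and 0 lower moved under 7 alternatives. They were 5 and 11 with the most abundant isoform, 1 and 3 with that isoform and robust dispersions, 2 and 1 with edgeR 4, 1 (Cgnl1) and 3 (Prr5l, A630039O03Rik, Wdr93) with weeks pooled, 0 and 5 without the 4-week group (Gcgr, Pkn3, Sema6c, Sh3tc1, Wdr93), and 0 and 10 without the 8-week group, with Prr5l (FDR 0.00076) and Aspa (FDR 0.00867) at the front (edgeR, Benjamini-Hochberg). Over these alternatives the FDR of Prr5l ran from 0.00076 to 1. Leaving out each replicate number gave 0 higher and 0 to 1 lower (Zfp142, without replicate 5). The difference between MBH and DMH gave 1 and 2 genes with the most abundant isoform and 0 and 1 with the replicate block by hamster, which shares animals between the regions. Replicate number was not taken to pair the MBH libraries. Pairing was to be assumed only if all 60 same-numbered pairs had correlated deviations above 0.1, and 20 had. The correlations ran from -0.156 to 0.251 (median 0.0640, against -0.00754 for other numbers). Of 30 libraries, 12 correlated best with their own number among the 6 numbers. Same-numbered libraries were thus somewhat more alike than others, and the main fit held no term for this. With the replicate block 0 genes passed, and 0 and 2 myelin genes were higher and lower at an unadjusted p below 0.05 in place of 0 and 5.

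Of 2336 recomputed values of 99 named genes, 2271 kept their direction and side of the threshold, 33 newly passed it and 32 changed direction. Leaving out 1 replicate number at a time, the log2 difference ran from -0.088 to 0.17 for Agrp, from -0.10 to 0.59 for Mc4r, from -0.21 to 0.28 for Gal, from -0.18 to 0.48 for Appl2, from -0.45 to 0.11 for Pcmtd1, from -0.088 to 0.26 for Pomc, from -0.28 to 0.15 for Cga, from -1.63 to 0.40 for Tbx19 and from -3.96 to 1.37 for Otx2. Without the 4-week group it was 0.36 for Upp2, -0.14 for Gal, -0.076 for Nanp, -0.075 for Dalrd3, -0.30 for Appl2, 0.056 for Pcmtd1, -0.048 for Pomc and 0.21 for Cga. Without the 8-week group it was -0.10 for Mc4r and -0.27 for Oxt, without the 12-week group -0.031 for Appl2 and without the 16-week group 0.0016 for Cga. Without the 20-week group it was -0.0052 for Agrp, -0.27 for Mc4r, -0.011 for Oxt, 0.058 for Chrna1 and -0.073 for Pomc. With library totals it was -0.016 for Gal, 0.10 for Pcmtd1 and 0.37 for Cga. The causes were not tested. Depth limits genes of a few CPM, which in the named genes rested on a few reads in most libraries where they were read, and the p-values measure the spread between hamsters of 1 series.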
